A study of Homo sapiens with 8 samples.

Results

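The proteasome genes were taken as every symbol that starts with PSMA, PSMB, PSMC, PSMD, PSME, PSMF or PSMG followed by a digit. The rule matched 47 symbols in each of the tables, out of 12700 genes listed for 143B and 12810 for HOS. PSMC3IP, among them, encodes a meiotic recombination protein and not a part of the proteasome, and was set apart, which left 46 genes. All 46 were listed and tested in both lines. Polyadenylated RNA was sequenced from 2 established human osteosarcoma cell lines, HOS and its derivative 143B, with 8 libraries in all. Each line had 2 control libraries (labelled NC) and 2 libraries labelled sgNAT10, for a guide against NAT10, the enzyme that writes N4-acetylcytidine on RNA, in a study of knockout and control cells. No treatment, time or passage is given. The labels leave unsaid whether a group's libraries are separate cultures, guides or clones, so the p-values measure only the spread among these libraries, and it may be technical. The question was how the RNA of the proteasome differed between sgNAT10 and NC within each line, by the role of the genes.

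The proteasome degrades proteins that carry ubiquitin chains. Its 20S core is a barrel of stacked rings: the outer rings are built of alpha subunits, which gate the entry, and the inner rings of beta subunits, of which PSMB5, PSMB6 and PSMB7 carry the active sites. In the immunoproteasome these are replaced by PSMB8, PSMB9 and PSMB10, which interferon induces and which alter the peptides made for antigen presentation. The 19S cap binds ubiquitin chains, removes them and unfolds the substrate with a ring of ATPases (PSMC genes) set in a base and covered by a lid (PSMD genes). PSME genes encode other activators of the core, PSMF1 an inhibitor, and PSMG genes the chaperones that assemble the core. Many of these genes are transcribed together under NFE2L1, which binds an antioxidant-like element when the proteasome is impaired.

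Promoter windows are printed for 4 genes that were chosen by their changes. PSMA4 and PSMA6 had the largest rises in 143B, and PSMA5 was the 1 gene of the 46 whose fall passed the test there. PSMB9 was the immunoproteasome gene with the largest fall in HOS. Whether these windows bear on the changes was not tested. Each is given 5′ to 3′ on the strand of its gene, from RefSeq on GRCh38.p14, as bases upstream of an annotated start. Capitals mark matches to TGACNNNGC, the core of the antioxidant-like element, or to CCAAT, a box bound by NF-Y, on either strand.
PSMA4 (chr15:78540155-78540404, plus strand): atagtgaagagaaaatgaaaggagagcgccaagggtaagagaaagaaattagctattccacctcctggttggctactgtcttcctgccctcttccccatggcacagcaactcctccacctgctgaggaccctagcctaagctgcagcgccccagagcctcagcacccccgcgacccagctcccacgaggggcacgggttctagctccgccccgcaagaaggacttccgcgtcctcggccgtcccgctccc
PSMA6 (chr14:35292067-35292316, plus strand): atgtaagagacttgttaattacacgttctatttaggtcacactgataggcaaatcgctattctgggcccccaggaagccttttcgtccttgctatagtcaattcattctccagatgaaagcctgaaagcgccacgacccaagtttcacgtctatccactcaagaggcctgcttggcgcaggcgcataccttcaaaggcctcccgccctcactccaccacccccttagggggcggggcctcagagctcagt
PSMA5 (chr1:109426449-109426698, minus strand): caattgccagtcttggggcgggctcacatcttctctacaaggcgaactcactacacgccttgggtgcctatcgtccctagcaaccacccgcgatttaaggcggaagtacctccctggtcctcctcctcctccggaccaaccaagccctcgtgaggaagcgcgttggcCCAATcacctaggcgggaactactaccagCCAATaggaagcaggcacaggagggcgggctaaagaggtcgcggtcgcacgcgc
PSMB9 (chr6:32853979-32854147, plus strand, the 169 bases outside annotated exons): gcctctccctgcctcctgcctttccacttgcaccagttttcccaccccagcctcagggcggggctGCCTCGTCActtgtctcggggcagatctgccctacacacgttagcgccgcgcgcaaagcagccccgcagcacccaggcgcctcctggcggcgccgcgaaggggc
PSMA5 held 2 matches to CCAAT, and the windows of PSMA4 and PSMA6 held neither motif. The printed bases of PSMB9 held 1 match to TGACNNNGC on the opposite strand, and its whole window of 250 bases also held 1 match to CCAAT, which is not within the printed bases. Several genes have more than 1 annotated start in RefSeq, and another start of PSMA4 had 1 match to each motif. RefSeq windows of 250 bases matched 40 of the 46 genes by symbol, with 49 windows. TGACNNNGC was in 13 of these 49 (26.5%), against 10.9% of all 35114 windows of the same length. CCAAT was in 18 of 49 (36.7%), against 32% of all, and both motifs stood together in 5 (10.2%), against 3.55%. The motifs do not overlap in sequence, the counts cover both strands, and a match is a stretch of letters, not a bound site. The start sites of PSMB9 and of the peptide transporter gene TAP1 lie 488 bases apart on opposite strands of chromosome 6, at positions 32854192 and 32853704. The annotated gene models of PSMB9 and TAP1 overlap.

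With sgNAT10, the RNA of NAT10 itself was lower in 143B and not in HOS. FPKM, the deposited unit, counts fragments per kilobase of transcript relative to the library's mapped fragments. The 143B libraries had 16.1 and 19.9 FPKM of NAT10 in NC and 9.05 and 7.19 in sgNAT10, a change of -1.06 (SE 0.31, adjusted p = 0.026) on the scale of log2(FPKM + 1), by limma with Benjamini-Hochberg adjustment, as are all adjusted p-values here. The HOS libraries had 14.9 and 16.2 in NC and 21.1 and 19.1 in sgNAT10, a change of 0.35 (SE 0.10, adjusted p = 0.0054), so that the HOS groups are named below only by their labels. The change of NAT10 in 143B was not called without NC replicate 2, with a log2 change of -0.91, without either sgNAT10 library, with -1.21 and -0.91, or with median-ratio scaling or quantile normalization, with -0.80 and -0.72. That in HOS was not called without sgNAT10 replicate 1 (0.29), with median-ratio scaling (0.14), with quantile normalization (0.20) or with a spread shared by all 8 libraries (adjusted p = 0.23), and was -0.13 after correction for length and GC content. Depth is unknown because the tables hold no counts, and a library's listed FPKM added up to 484793 at the lowest and 798137 at the highest. The share of the 82 cytosolic ribosomal protein genes in that sum was 26.2% ± 1.12 (SD, n = 2) in NC and 41.3% ± 0.927 in sgNAT10 of 143B. For HOS it was 28.0% ± 0.241 in NC and 20.8% ± 0.472 in sgNAT10. Their part in the values below was not tested beyond the scaling alternatives. Of the 10 mesenchymal markers 8 were listed in 143B, where COL1A2 and THY1 were not, and COL1A1 stood at 1.32 to 5.44 FPKM, and all 10 were listed in HOS. In 143B their summed FPKM was 1448 and 1903 in NC but 544 and 859 in sgNAT10, and HOS libraries had 1538 to 1985. VIM alone made up most of that sum in 143B, at 1339 and 1741 in NC and 482 and 766 in sgNAT10. COL1A1 stood at 314 to 421 FPKM in HOS. Among the 7 markers tested in 143B, 5 fell, against 25.4% of all genes. CDH2 was the 1 with a change above 0 there (0.70), and it was not called. Of the 7 blood markers only CD14 and CD68 were listed, with a sum of 128 and 104 FPKM in 143B NC, 50.3 and 45.6 in 143B sgNAT10, and 16.7 to 18.7 in HOS. PTPRC and CD3E, which define blood cells, were not among the listed genes. Epithelial markers summed to at most 5.20 FPKM in 143B and 22.7 in HOS. The part of these markers in the results was not tested. In bulk RNA, fewer cells of a type and less RNA per cell cannot be told apart.

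Of the proteasome genes that passed the test, most were higher with sgNAT10 in 143B and most were lower in HOS. The rises in 143B were near the share of rises among all genes, and the falls there were below their share. In 143B, 8 of the 46 passed it, against 38.3% of all genes tested: 7 rose in sgNAT10 (PSMA4, PSMA6, PSMA7, PSMB10, PSMC3, PSME2 and PSMG4) and 1, PSMA5, fell. Among all 11419 genes tested in 143B, 12.9% were higher and 25.4% lower. In HOS, 33 of the 46 passed it, against 68.5% of all: 6 were higher (PSMB2, PSMD2, PSMD3, PSME3, PSME4 and PSMF1) and 27 were lower in the libraries labelled sgNAT10, against 45.5% higher and 23% lower among all 11957 genes tested. The median log2 change of the 46 genes was 0.36 in 143B, where that of all genes was -0.25, and -0.35 in HOS, where that of all genes was 0.19. By position, 31 of 46 changes were above 0 in 143B and 11 of 46 in HOS. Both sgNAT10 libraries lay above both NC libraries for 19 genes in 143B and below both for 6, against 23.9% and 42.8% of all genes. In HOS they lay above for 8 and below for 30, against 53.9% and 29.2%.

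The counts depended on the scaling. Rescaling the libraries to a common sum moved the median of all genes to -0.54 in 143B and 0.37 in HOS, with the medians of the 46 genes at 0.03 and -0.14. The calls were then 6 higher and 4 lower in 143B (all genes 7.49% and 33.2%) and 11 higher and 21 lower in HOS (59.4% and 14.2%). Median-ratio scaling brought the medians of all genes to -0.01 in both lines, with the 46 genes at 0.64 and -0.58. Each of these scalings divides a library by 1 factor, which shifts the members and all genes nearly alike. Neither could therefore test the gap between the members' median and that of all genes. Median-ratio scaling gave 11 higher and 1 lower in 143B (all genes 21.2% and 22.1%) and 5 higher and 34 lower in HOS (31.3% and 34%). Leaving out 1 library changed the number of rises in 143B from 7 to 4 without sgNAT10 replicate 2 (5.72% of all genes) or 12 without NC replicate 2 (18.4%), and the number of falls from 1 to 3 without NC replicate 1 (32.4%). In HOS the rises became 9 without NC replicate 2 (48.6%).

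Most HOS calls rest on the narrow spread in that line. With the spread estimated over all 8 libraries, 4 of the 33 were still called, the rise of PSMD2 and the falls of PSMB7, PSMD4 and PSME2, where 14.7% of all 10655 genes were higher and 2.83% lower. The other 29 were not called, among them PSMA4 (adjusted p = 0.09), PSMA6 and PSMB9 (0.059 each), PSMC3 (0.066), PSMD7 (0.075), PSMD1 (0.083) and PSMA3 (0.17). The HOS values below come from the fit of that line alone.

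**Figure D1:**
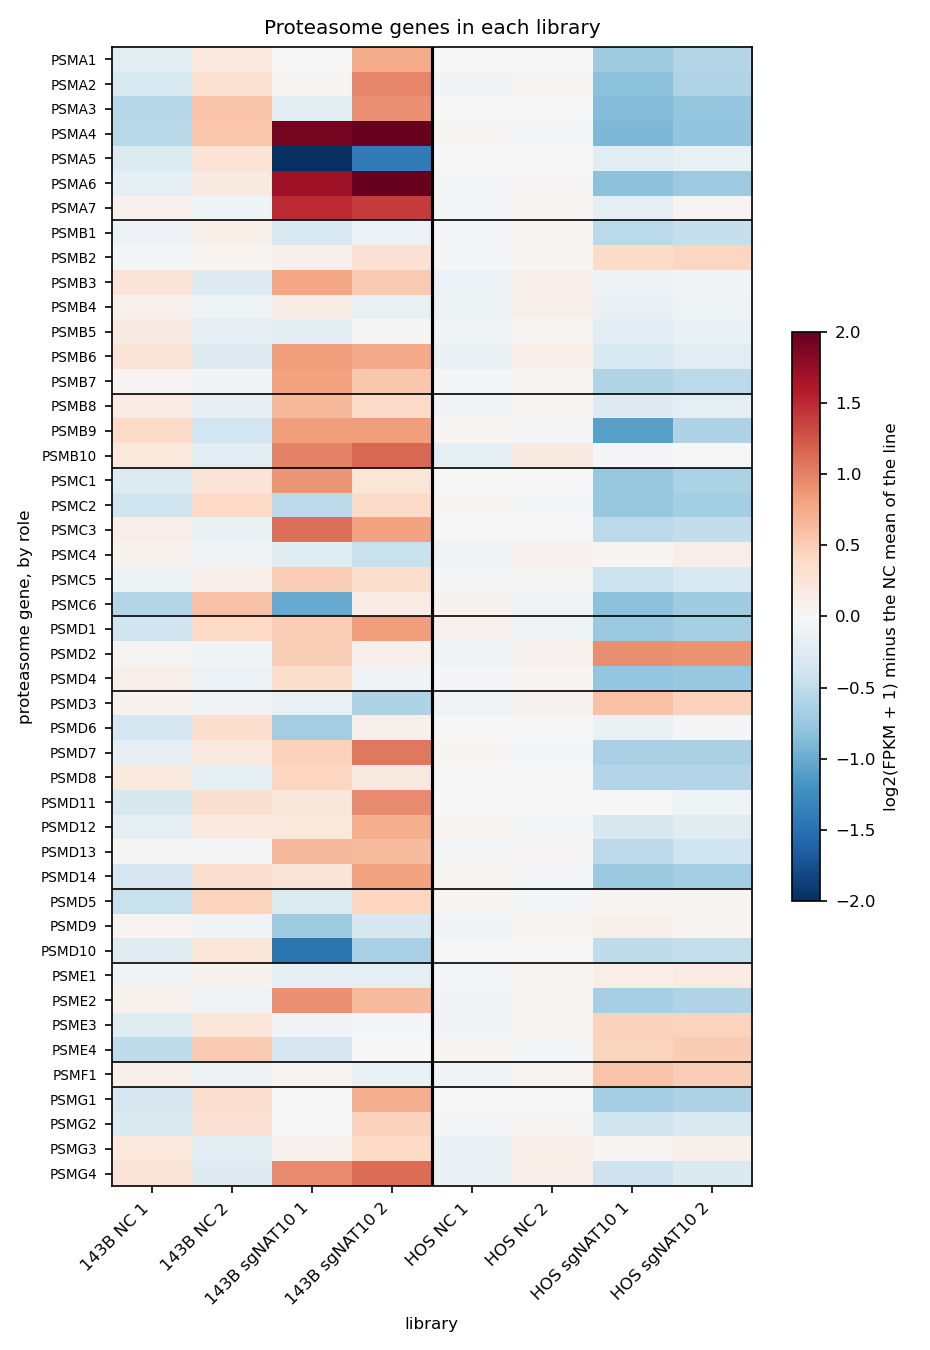
Heat map of the 46 proteasome genes (vertical axis, grouped by role with lines between the groups) in the 8 libraries (horizontal axis). Colour is log2(FPKM + 1) minus the mean of the NC libraries of the same line, red above and blue below, saturating at 2 in either direction; PSMA4, PSMA6 and PSMA7 are dark red and PSMA5 dark blue in both 143B sgNAT10 libraries, while most genes are light blue in both HOS libraries labelled sgNAT10.

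The alpha subunits, which form the outer rings of the core, held the largest changes of all roles in 143B. Of the 7 listed alpha genes 3 rose and 1 fell in 143B, and 5 of 7 fell in HOS. Among all genes, 12.9% rose and 25.4% fell in 143B, and 45.5% and 23% in HOS. These shares belong beside the counts of each role below as well. PSMA8, the testis form, was not among the listed genes. PSMA4, on chromosome 15 from 78540405 to 78552419, stood at 20.7 and 45.99 FPKM in 143B NC and at 119.5 and 156 FPKM in 143B sgNAT10. Both sgNAT10 libraries lay well above both NC libraries, which themselves differed. The log2 change was 2.11 (SE 0.36, adjusted p = 0.0036), a 4.31-fold rise on the log2(FPKM + 1) scale that all changes here are on. In HOS, PSMA4 stood at 346 and 332 FPKM in NC and 181 and 196 FPKM in sgNAT10. It was lower in both libraries labelled sgNAT10 there, with a change of -0.85 (SE 0.083, adjusted p = 2.7e-07). As a contrast between lines, the 143B change less the HOS change, this was 2.96 (SE 0.45, adjusted p = 0.00081). PSMA4 RNA in 143B sgNAT10 thus stayed below its level in every HOS library, although levels across the lines come from tables normalized separately.

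PSMA6, whose gene lies on chromosome 14 from 35278633 to 35317493, followed the same course. Its FPKM was 65.9 and 84.01 in 143B NC and 243 and 415 in 143B sgNAT10, a change of 2.08 (SE 0.31, adjusted p = 0.0022). The HOS values were 265 and 274 in NC and 153 and 162 in sgNAT10, a change of -0.77 (SE 0.082, adjusted p = 6.4e-07). The groups did not overlap in either line, and the changes differed between the lines by 2.85 (SE 0.35, adjusted p = 0.00031). PSMA7 was the most abundant of the alpha genes in both lines. The 143B libraries had 526 and 464 FPKM in NC and 1396 and 1309.6 in sgNAT10, a change of 1.45 (SE 0.27, adjusted p = 0.0045). Its HOS values were 398 and 422 in NC and 357 and 426 in sgNAT10, which overlapped, with a log2 change of -0.072 (adjusted p = 0.49). The changes of PSMA7 differed between the lines by 1.52 (SE 0.23, adjusted p = 0.00082).

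PSMA5 went the other way in 143B. The libraries had 31.00 and 45.5 FPKM in NC and 8.24 and 13.6 FPKM in sgNAT10, and both sgNAT10 libraries lay below both NC libraries. The log2 change was -1.73 (SE 0.33, adjusted p = 0.0051), which left 0.301 times the NC level. HOS libraries had 33.6 and 33.8 FPKM in NC and 28.9 and 30.2 FPKM in sgNAT10, slightly lower in both libraries but not past the test (-0.18, adjusted p = 0.084). The difference between the lines was -1.55 (SE 0.37, adjusted p = 0.0075). In 143B sgNAT10, PSMA5 had the lowest mean FPKM of the 7 alpha genes (10.9, against 1353 for PSMA7), and it was also the lowest in both HOS groups (33.7 in NC and 29.5 in sgNAT10). In 143B NC the lowest was PSMA4, at 33.3. PSMA1, PSMA2 and PSMA3 had overlapping groups in 143B, with log2 changes of 0.37, 0.51 and 0.36, none past the test. PSMA3, for one, stood at 39.8 and 88.8 FPKM in 143B NC and 51.4 and 113 in 143B sgNAT10, where the second library of each group exceeded the first by more than the groups differed. Its HOS values were 339 and 341 in NC and 186 and 199 in sgNAT10. It was lower in both libraries labelled sgNAT10, with a change of -0.82 (SE 0.081, adjusted p = 3.2e-07). PSMA1 and PSMA2 were lower in HOS by similar amounts, with log2 changes of -0.65 (adjusted p = 4.3e-06) and -0.71 (adjusted p = 4.8e-06).

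In the fit of 143B alone, no constitutive beta subunit, of 7, passed the test. For 4 of them, PSMB2, PSMB3, PSMB6 and PSMB7, both sgNAT10 libraries lay above both NC libraries there, against 23.9% of all genes. In HOS 1 of the 7 rose, PSMB2, and 3 fell, PSMB1, PSMB6 and PSMB7. PSMB6, which cleaves after acidic residues, stood at 493 and 341 FPKM in 143B NC and 734 and 693 in 143B sgNAT10, with a change of 0.80 (SE 0.28, adjusted p = 0.052). The HOS libraries held 219 and 264 in NC and 194 and 208 in sgNAT10. The HOS change was -0.26 (SE 0.094, adjusted p = 0.021) on the log2 scale, a call that was not made without NC replicate 2 (-0.12) or without sgNAT10 replicate 1 (-0.21), nor with libraries at a common sum (-0.05). PSMB7, with trypsin-like activity, stood at 246 and 226 FPKM in 143B NC and 414 and 344 in 143B sgNAT10, a change of 0.68 (SE 0.25, adjusted p = 0.059). Of 17 alternatives, PSMB6 was called higher in 143B in 6 and PSMB7 in 4. A spread shared by all 8 libraries was among them (adjusted p = 0.0094 for PSMB6 and 0.0068 for PSMB7). PSMB7 fell in HOS from 246 and 257 in NC to 166 and 172 in sgNAT10, a change of -0.57 (SE 0.082, adjusted p = 1.2e-05). PSMB5, the chymotrypsin-like subunit and the main target of bortezomib, did not change past the test in either line. It stood at 552 and 433 FPKM in 143B NC and 419 and 499 in 143B sgNAT10, which overlapped (-0.095, adjusted p = 0.81). FPKM in HOS was 253 and 271 in NC and 223 and 239 in sgNAT10, which did not overlap (-0.18, adjusted p = 0.061). The change of PSMB7 differed between the lines by 1.25 (adjusted p = 0.002) and that of PSMB6 by 1.06 (adjusted p = 0.014), while the changes of PSMB5 did not differ past the test. The difference of PSMB6 was not called at a common sum (0.51), with quantile normalization (0.50), without HOS NC replicate 2 (0.92) or without HOS sgNAT10 replicate 1 (1.01).

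The 3 catalytic subunits of the immunoproteasome were each higher in both sgNAT10 libraries than in both NC libraries of 143B, but only PSMB10 passed the test there. PSMB10 stood at 37.6 and 27.8 FPKM in NC and 65.5 and 73.05 in sgNAT10, a change of 1.07 (SE 0.26, adjusted p = 0.012) that was not called without sgNAT10 replicate 2 (0.997, adjusted p = 0.066). The HOS values were 10.7 and 13.9 in NC and 11.96 and 12.3 in sgNAT10, which overlapped, with a log2 change of -0.0084 (adjusted p = 0.95). PSMB9 stood at 28.1 and 15.99 FPKM in 143B NC and 38.6 and 38.7 in 143B sgNAT10, with a change of 0.83 (SE 0.31, adjusted p = 0.062). The spread between its NC libraries was wide, and without NC replicate 1 the change was called (1.22, adjusted p = 0.0041), while without NC replicate 2 it was 0.45. HOS libraries had 18.04 and 17.1 in NC and 7.73 and 11.1 in sgNAT10. That was a change of -0.85 (SE 0.13, adjusted p = 2.3e-05) on the log2 scale, close to that of PSMA4. PSMB8 stood at 52.04 and 40.9 FPKM in 143B NC and 72.6 and 60.5 in 143B sgNAT10 (0.51, adjusted p = 0.14), and in HOS at 25.2 and 27.2 in NC and 21.7 and 22.6 in sgNAT10. The small fall of PSMB8 in HOS (-0.23, adjusted p = 0.041) was not called without either library labelled sgNAT10 (-0.20 and -0.26), without an intensity trend (adjusted p = 0.053) or at a common sum (-0.026). All 3 genes differed in change between the lines: PSMB9 by 1.69 (SE 0.39, adjusted p = 0.0062), PSMB10 by 1.08 (SE 0.30, adjusted p = 0.016) and PSMB8 by 0.74 (SE 0.27, adjusted p = 0.045). Those of PSMB10 and PSMB8 were the less secure. Without a HOS library the difference of PSMB10 was not called in 3 of 4 cases (0.91 without NC replicate 2, 1.06 and 1.10 without sgNAT10 replicates 1 and 2), and that of PSMB8 was called in none of the 4 (0.69 to 0.79), nor without 143B NC replicate 2 (0.57) or sgNAT10 replicate 1 (0.61). At a common sum neither was called (0.56 and 0.21). The gene models of PSMB8 (chr6:32840717-32844703, minus strand) and PSMB9 (chr6:32844136-32859585, plus strand) overlap, and the sources used here do not say whether counting used strand, so reads in the overlap cannot be told apart. The gene model of TAP1 (chr6:32845209-32853978, minus strand) lies within that of PSMB9, with the same limit.

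Within a library, the constitutive and immunoproteasome subunits can be set side by side, since FPKM is per length. The immunoproteasome genes took 8.36% and 7.81% of the summed FPKM of the 6 catalytic genes in 143B NC and 10.1% in both 143B sgNAT10 libraries. In HOS they took 6.98% and 6.84% in NC and 6.64% and 6.92% in sgNAT10. The 143B groups did not overlap and the HOS groups did, with exact two-sided permutation p-values of 0.33 and 0.67, where 2 libraries against 2 cannot go below 0.33. In each of the 8 libraries the constitutive genes were the more abundant.

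**Figure D2:**
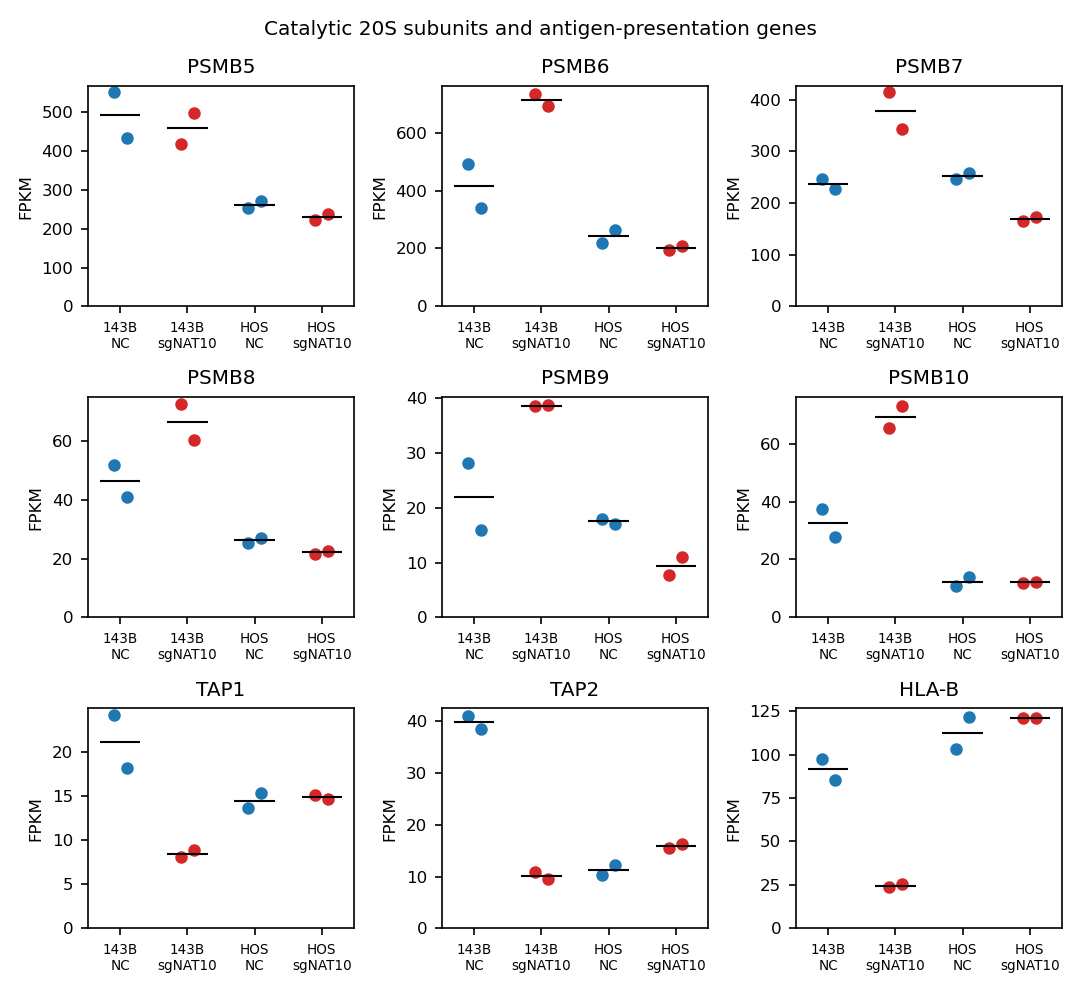
FPKM (vertical axis, linear from 0) of the 6 catalytic subunits and of TAP1, TAP2 and HLA-B in the 4 groups (horizontal axis). Points are libraries, blue for NC and red for sgNAT10, and the bar is the mean of a group; PSMB9 lies at 38.6 and 38.7 in 143B sgNAT10, above its NC libraries, while TAP1 lies at 8.03 and 8.84, below its NC libraries.

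In a list of 21 antigen-presentation and interferon genes, 17 were tested in 143B, of which 3 rose and 6 fell, where 12.9% and 25.4% of all genes did. The median log2 change of the list there was -0.22, beside -0.25 for all genes. In HOS all 21 were tested, of which 5 rose and 4 fell, against 45.5% and 23%, with a median of 0.00 beside 0.19. The 3 that rose in 143B, ISG15, IFIT3 and MX1, are induced by interferon. ISG15 had 98.8 and 61.1 FPKM in NC and 206.5 and 234.6 in sgNAT10, a change of 1.49 (adjusted p = 0.0049). IFIT3, at 0.52 and 1.30 in NC and 3.99 and 2.88 in sgNAT10, and MX1, at 1.15 and 1.16 and 3.06 and 2.68, were low, with changes of 1.23 (adjusted p = 0.014) and 0.84 (adjusted p = 0.032), neither called at a common sum. The genes with the largest called changes in 143B were HLA-C and HLA-B, heavy chains of class I molecules, and TAP2, a peptide transporter chain. TAP2 stood at 40.96 and 38.6 FPKM in NC and 10.9 and 9.43 in sgNAT10 in 143B (-1.87, adjusted p = 0.002), HLA-B at 97.6 and 85.4 and 23.9 and 25.3 (-1.85, adjusted p = 0.0016), and HLA-C at 108 and 97.95 and 28.96 and 26.03 (-1.87, adjusted p = 0.0015). For each of these genes both sgNAT10 libraries lay below both NC libraries. In HOS the largest were falls of the interferon-induced IFIT3 and of B2M, the light chain of class I molecules, and a rise of TAPBP, which helps to load peptides onto them. IFIT3 stood at 24.7 and 21.7 FPKM in HOS NC and 10.9 and 11.1 in HOS sgNAT10 (-1.01, adjusted p = 4.2e-07), B2M at 1426 and 1305 and 712 and 749 (-0.90, adjusted p = 1.1e-07), and TAPBP at 14.2 and 17.3 and 30.8 and 28.2 (0.87, adjusted p = 3e-06). TAP1, chosen after its values were seen because it neighbours PSMB9, stood at 24.2 and 18.1 FPKM in 143B NC and 8.03 and 8.84 in 143B sgNAT10. It fell by 1.22 on the log2 scale (adjusted p = 0.014), which was not called without either sgNAT10 library (-1.16 and -1.28). In HOS, where PSMB9 fell, TAP1 stood at 13.6 and 15.3 in NC and 15.1 and 14.7 in sgNAT10 (0.044, adjusted p = 0.72), so that the groups overlapped. After correction for length and GC content TAP1 was called lower in HOS (-0.34, adjusted p = 0.00079).

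Of the 6 ATPases of the 19S base, PSMC3 alone passed the test in 143B, where it rose, and 5 fell in HOS (PSMC1, PSMC2, PSMC3, PSMC5 and PSMC6). PSMC3 stood at 179 and 148 FPKM in 143B NC and 351 and 286 in 143B sgNAT10, a change of 0.95 (SE 0.25, adjusted p = 0.017), which was not called without sgNAT10 replicate 1 (0.81, adjusted p = 0.14). Its HOS values were 206 and 209 in NC and 142 and 146 in sgNAT10, a change of -0.52 (SE 0.081, adjusted p = 3.2e-05). The libraries of the labels did not overlap in either line, and the changes differed by 1.47 (SE 0.24, adjusted p = 0.0013). The 5 ATPases that fell in HOS had log2 changes between -0.77 and -0.37. PSMC4 was the exception there, at 68.9 and 77.1 FPKM in NC and 75.01 and 79.9 in sgNAT10, which overlapped (0.086, adjusted p = 0.41). PSMC6 and PSMC2 were the least abundant ATPases in 143B, and their libraries of 1 label differed by more than the labels did. PSMC6 stood at 10.8 and 25.9 FPKM in 143B NC and 7.87 and 18.9 in 143B sgNAT10 (-0.42, adjusted p = 0.52).

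The other 3 subunits of the base differed among themselves in HOS. PSMD2, a large scaffold and ubiquitin-binding subunit, rose there more than any other of the 46 genes. It stood at 74.7 and 84.9 FPKM in HOS NC and 152 and 149.5 in HOS sgNAT10, a change of 0.91 (SE 0.089, adjusted p = 2.7e-07), or 1.88 times the NC level. Its 143B values were 336 and 311 in NC and 453 and 346 in sgNAT10, higher in both sgNAT10 libraries but not past the test (0.29, adjusted p = 0.41). PSMD1, the other large scaffold, fell in HOS. The libraries had 128 and 114 FPKM in NC and 71.7 and 75.8 in sgNAT10, a change of -0.70 (SE 0.09, adjusted p = 3.9e-06), so that these 2 subunits of the base changed in opposite directions in HOS. In 143B PSMD1 stood at 28.4 and 49.6 in NC and 53.5 and 67.5 in sgNAT10 (0.66, adjusted p = 0.12). The change of PSMD1 differed between the lines by 1.37 (SE 0.36, adjusted p = 0.012), which was not called without HOS NC replicate 1 (1.28, adjusted p = 0.056) or at a common sum (0.83). The ubiquitin receptor PSMD4 fell in HOS, from 325 and 343 FPKM in NC to 195 and 196 in sgNAT10, a change of -0.77 (SE 0.081, adjusted p = 5.8e-07).

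In the lid none of 8 genes passed the test in 143B, and in HOS 5 fell (PSMD7, PSMD8, PSMD12, PSMD13 and PSMD14) and 1, PSMD3, rose. PSMD14 is the enzyme that removes ubiquitin chains from substrates, and PSMD7 is its partner. PSMD7 stood at 42.3 and 56.2 FPKM in 143B NC and 67.6 and 103 in 143B sgNAT10, higher in both but not past the test (0.76, adjusted p = 0.065). The HOS libraries held 128 and 124 in NC and 79.9 and 80.4 in sgNAT10, lower in both, a change of -0.65 (SE 0.084, adjusted p = 4.5e-06). The changes differed between the lines by 1.41 (SE 0.32, adjusted p = 0.0059), which was 0.87 and not called at a common sum. PSMD14 fell in HOS by a similar amount, from 108 and 103 FPKM to 62.9 and 65.1 (-0.71, adjusted p = 2.3e-06). PSMD3 and PSMA5 were the 2 genes whose change was called lower in 143B than in HOS. PSMD3 stood at 174 and 157 FPKM in 143B NC and 149 and 107 in 143B sgNAT10 (-0.38, adjusted p = 0.27). FPKM in HOS was 57.1 and 63.2 in NC and 91.2 and 83.5 in sgNAT10 (0.53, SE 0.091, adjusted p = 8.1e-05). No library of 1 label overlapped the other in either line, with opposite directions. The difference of PSMD3, -0.91 (SE 0.27, adjusted p = 0.022), was not called without any 1 of the 4 HOS libraries (-0.98 to -0.84), nor with median-ratio scaling (-0.40) or after correction for length and GC content (-0.11).

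The chaperones that assemble the 19S base (PSMD5, PSMD9 and PSMD10) had none past the test in 143B and 1 fall, PSMD10, in HOS. PSMD10, also known as gankyrin, stood at 12.3 and 17.6 FPKM in 143B NC and 4.74 and 9.04 in 143B sgNAT10, lower in both (-1.05, adjusted p = 0.055). The HOS values were 38.4 and 38.1 in NC and 26.4 and 27.3 in sgNAT10 (-0.49, adjusted p = 0.00016). It was named after its values were seen. These genes were among the least abundant of the 46, with mean FPKM of 6.89 to 15.0 in 143B. Of the 4 chaperones of the core, 1 rose in 143B and 3 fell in HOS. PSMG4 stood at 83.02 and 58.05 FPKM in 143B NC and 135 and 151 in 143B sgNAT10, a change of 1.03 (SE 0.26, adjusted p = 0.015) that was not called without sgNAT10 replicate 2 (0.95, adjusted p = 0.063). HOS libraries had 45.9 and 54.97 in NC and 37.6 and 40.8 in sgNAT10, a change of -0.35 (SE 0.10, adjusted p = 0.0055) that was not called without sgNAT10 replicate 1 (-0.29) or at a common sum (-0.14). The changes of PSMG4 differed between the lines by 1.38 (SE 0.29, adjusted p = 0.0044). PSMG1 and PSMG2, which form a pair, were lower in HOS with log2 changes of -0.64 (adjusted p = 6.1e-06) and -0.35 (adjusted p = 0.0016), the latter not called at a common sum (-0.14), and PSMG3 was not called in either line.

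The activators did not move as a group. PSME1 and PSME2 are the interferon-induced subunits of the 11S activator, which assemble into the same ring. PSME2 stood at 102 and 92.1 FPKM in 143B NC and 183 and 149.8 in 143B sgNAT10, a change of 0.77 (SE 0.24, adjusted p = 0.034). The groups did not overlap, but the call was lost without NC replicate 2 (0.70), without either sgNAT10 library (0.63 and 0.91) and at a common sum (0.44). Its HOS values were 118 and 127 in NC and 76.8 and 79.9 in sgNAT10, a change of -0.64 (SE 0.086, adjusted p = 7.3e-06). The difference between the lines was 1.41 (SE 0.24, adjusted p = 0.0014). PSME1, in contrast, was not called in either line, with log2 changes of -0.19 (adjusted p = 0.56) in 143B and 0.15 (adjusted p = 0.13) in HOS. PSME3, a nuclear activator, rose in HOS from 50.98 and 55.1 FPKM in NC to 73.6 and 72.6 in sgNAT10 (0.46, adjusted p = 0.00023). PSME4, a large nuclear activator, stood at 12.8 and 12.1 in HOS NC and 17.3 and 18.1 in HOS sgNAT10, a change of 0.48 (SE 0.10, adjusted p = 0.00044), and at 3.53 and 8.13 in 143B NC and 4.11 and 5.38 in 143B sgNAT10 (-0.17, adjusted p = 0.77). The inhibitor PSMF1 rose in HOS, from 37.3 and 40.7 FPKM in NC to 58.6 and 55.1 in sgNAT10 (0.53, SE 0.092, adjusted p = 8e-05). In 143B its libraries overlapped, at 94.4 and 82.02 in NC and 91.1 and 79.8 in sgNAT10 (-0.045, adjusted p = 0.9). With a spread shared by all 8 libraries the adjusted p in HOS was 0.12 for PSME3, 0.28 for PSME4 and 0.058 for PSMF1.

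**Figure D3:**
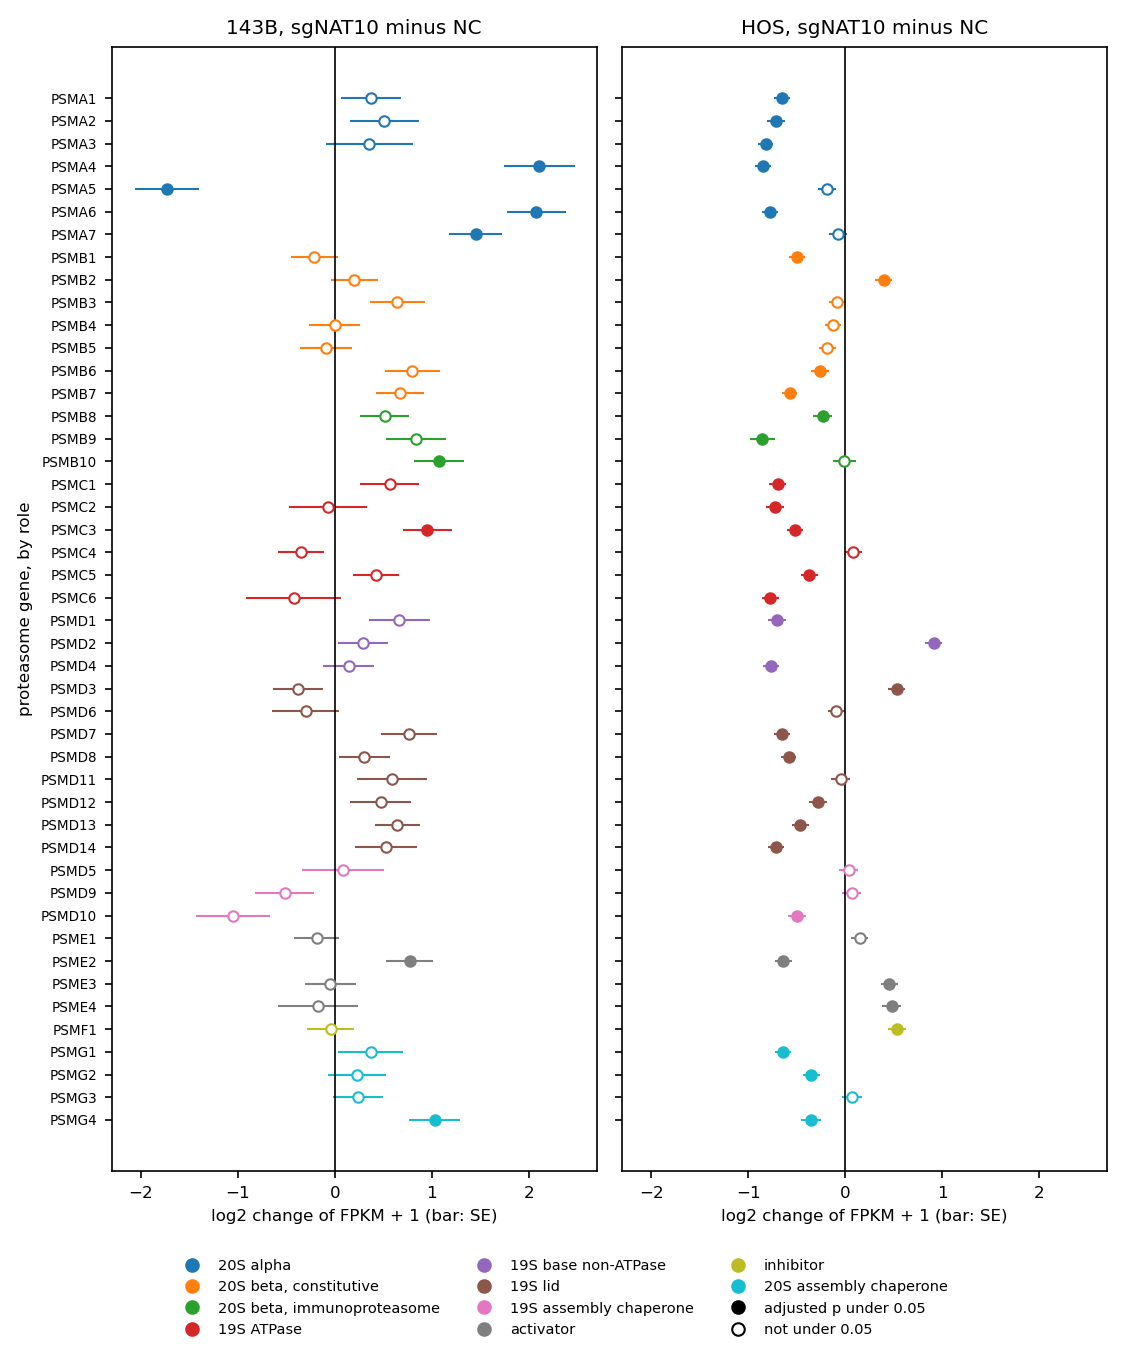
Log2 change of FPKM + 1 from NC to sgNAT10 (horizontal axis) of the 46 genes by role (vertical axis), in 143B on the left and HOS on the right. Bars are standard errors from the fit of each line, and filled points have an adjusted p under 0.05; the standard errors are wider in 143B, where 8 points are filled, than in HOS, where 33 are.

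The number of calls in the lines cannot be compared directly, since the median standard error over all genes was 0.31 in 143B and 0.11 in HOS, so the change itself was compared. In the test of the difference between the lines, 21 of the 46 genes changed more positively in 143B than in HOS and 2, PSMA5 and PSMD3, more negatively. Among all 10655 genes tested in both lines, 12.9% and 36.2% did so. The median difference was 0.75 for the 46 genes and -0.44 for all. The core contributed 10 of its 17 genes to the 21, the 19S cap 9 of 17, and PSME2 and PSMG4 were the others. No gene of the 46 was called in the same direction in both lines, where 3.39% of all genes tested in both were higher in both and 2.73% lower in both. There were 5 genes higher in 143B and lower in HOS by the tests of the lines (PSMA4, PSMA6, PSMC3, PSME2 and PSMG4), against 3.63% of all genes, and none with the reverse, against 15.7%. A further 22 were lower in HOS only, 6 higher in HOS only, 2 higher in 143B only (PSMA7 and PSMB10), 1 lower in 143B only (PSMA5), and 10 were called in neither. The numbers depended on the scaling, with 9 higher and 9 lower at a common sum (all genes 5.84% and 48.7%) and 29 higher and 1 lower after median-ratio scaling (25.1% and 25.3%). Of the 23 differences, 11 were called in the same direction at a common sum and 22 after median-ratio scaling. Leaving out any 1 HOS library gave 12 higher without either NC library, 11 without sgNAT10 replicate 1 and 13 without sgNAT10 replicate 2, each with 1 lower, where 7.89% to 8.63% of all genes were higher and 26.4% to 29.5% lower. Without 143B NC replicate 1, 20 were higher and 4 lower (13.8% and 46.1%).

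**Figure D4:**
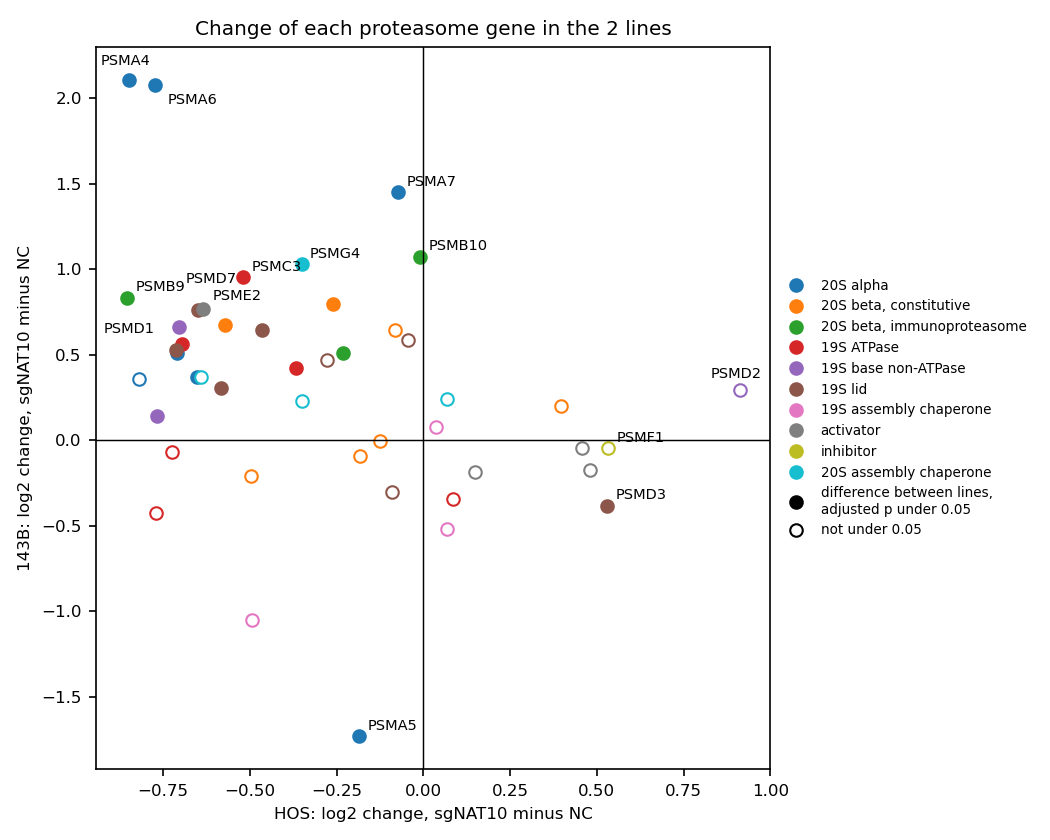
Log2 change of FPKM + 1 from NC to sgNAT10 in HOS (horizontal axis) against 143B (vertical axis) for each of the 46 genes, coloured by role. Filled points differed between the lines with an adjusted p under 0.05; 27 genes lie at the upper left, above 0 in 143B and below 0 in HOS, and PSMA5 lies alone at the bottom.

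Across the 46 genes, the changes in the lines had a Pearson correlation of -0.34 and a Spearman correlation of -0.39. Across all 10655 genes the Pearson correlation was -0.24, and genes are not independent replicates. By sign, 27 of the 46 were above 0 in 143B and below 0 in HOS, 7 the reverse, 4 above 0 in both and 8 below 0 in both. The libraries of a line serve all its genes, so the genes share their errors.

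As a share of all listed FPKM, the proteasome genes were near 1% in each library. They took 0.921% ± 0.0037 (SD, n = 2) in 143B NC and 1.06% ± 0.0040 in 143B sgNAT10, and 1.19% ± 0.016 in HOS NC and 1.06% ± 0.029 in HOS sgNAT10. The groups did not overlap in either line, with an exact two-sided permutation p of 0.33 in each, the smallest that 2 libraries against 2 allow. With the ribosomal protein and MTRNR2L genes left out of the total, the difference was 0.572 percentage points in 143B, in place of 0.138, and -0.348 in HOS, in place of -0.124. The median FPKM of the core genes was 56.2 and 84.0 in 143B NC and 113 and 128 in 143B sgNAT10, and that of the 19S cap genes was 65.0 and 93.4 in NC and 103 and 92.6 in sgNAT10. In HOS the core medians were 239.7 and 257 in NC and 162 and 171 in sgNAT10, and the cap medians 108 and 103 in NC and 79.9 and 83.5 in sgNAT10. The ratio of the core to the cap median was 0.865 and 0.899 in 143B NC and 1.10 and 1.38 in 143B sgNAT10. In HOS it was 2.22 and 2.50 in NC and 2.02 and 2.05 in sgNAT10. The ratio of these medians was thus higher with sgNAT10 in 143B and lower in HOS, without overlap, and higher in every HOS library than in any 143B library. A ratio of medians turns on the genes in the middle of each set. In 143B NC the mean of the alpha medians was 57.8 FPKM and that of the constitutive beta medians 394, against 270 and 255 in HOS NC. The ratio of total core to total cap RNA was not computed. It turns on the most abundant genes, and it need not share the level, the direction or the order of the lines seen in the medians. The ratio of medians is therefore no measure of total core against total cap RNA.

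The other genes of the pathway, 32 factors that regulate, help or supply the proteasome, were also tested. In 143B 2 of the 31 tested rose and 3 fell, where 12.9% and 25.4% of all genes did, with a median log2 change of -0.19 beside -0.25. In HOS 17 of 32 rose and 11 fell, against 45.5% and 23% of all, with a median of 0.24 beside 0.19. The genes that rose in 143B were UBE3A, a ubiquitin ligase found on the proteasome, and POMP, which drives the last step of core maturation. Those that fell included NFE2L1 and UBB, a gene of polyubiquitin. UBE3A stood at 8.04 and 13.1 FPKM in 143B NC and 73.7 and 89.3 in 143B sgNAT10, a change of 2.86 (SE 0.30, adjusted p = 0.00098). The HOS libraries held 25.98 and 24.1 in NC and 33.97 and 34.6 in sgNAT10 (0.44, adjusted p = 0.00055), a rise as well, though not called with median-ratio scaling (0.22). NFE2L1 fell in 143B and rose in HOS, opposite in sign to the median of the 46 genes in each line. It stood at 35.96 and 41.2 FPKM in 143B NC and 13.3 and 12.6 in 143B sgNAT10, a change of -1.50 (SE 0.26, adjusted p = 0.0037). FPKM in HOS was 35.3 and 35.98 in NC and 55.9 and 49.2 in sgNAT10, a change of 0.54 (SE 0.094, adjusted p = 8.3e-05). With a spread shared by all 8 libraries this rise was not called (adjusted p = 0.058). The changes of NFE2L1 differed between the lines by -2.05 (SE 0.24, adjusted p = 0.00028).

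POMP, named after its values were seen, rose in 143B and fell in HOS. The libraries had 45.01 and 65.2 FPKM in 143B NC and 84.6 and 127 in 143B sgNAT10, a log2 change of 0.92 (adjusted p = 0.037) that was not called at a common sum (0.59), without an intensity trend (adjusted p = 0.061), without NC replicate 1 (0.66) or without sgNAT10 replicate 2 (0.63). The HOS values were 156 and 169 in NC and 114 and 124 in sgNAT10 (-0.45, adjusted p = 0.00024), lower in both libraries, but 0.075 after correction for length and GC content. UBB stood at 1454 and 1466 FPKM in 143B NC and 649 and 612 in 143B sgNAT10. Its fall, -1.21 (adjusted p = 0.0092) on the log2 scale, was not called without either sgNAT10 library (-1.25 and -1.17) or with median-ratio scaling (-0.93). In HOS the largest rises of the list were in UBE3C, a ligase that extends chains on the proteasome, ZFAND5, which binds and activates it, and UBQLN2, a shuttle that brings substrates to it. UBE3C stood at 5.89 and 5.96 FPKM in HOS NC and 17.6 and 16.8 in HOS sgNAT10 (1.40, adjusted p = 1.7e-08), ZFAND5 at 19.9 and 19.4 and 43.5 and 41.9 (1.08, adjusted p = 7.2e-08), and UBQLN2 at 7.49 and 6.54 and 13.2 and 13.2 (0.83, adjusted p = 4.7e-06). The libraries of the labels did not overlap for any of these 3.

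Libraries of the same label differed with the base composition of the genes. Across the 46 genes, the second 143B NC library minus the first correlated with the GC content of the transcripts with r = -0.85, and the second 143B sgNAT10 library minus the first with r = -0.70, where all genes gave -0.73 and -0.59. In HOS these were 0.66 for NC and -0.11 for sgNAT10. The change from NC to sgNAT10 correlated with GC content across the 46 genes with r = 0.13 in 143B and 0.28 in HOS (all genes -0.37 and 0.30). With the log2 of transcript length it correlated with r = -0.33 in 143B and 0.40 in HOS (all genes -0.05 and 0.24). These are descriptions over genes that share libraries. The transcripts of the 46 genes had a median length of 1104.5 bases and a median GC content of 49.5%, against 1740 bases and 51.1% for all genes tested in 143B. After correction for length and GC content, 22 genes were higher and 3 lower in 143B (all genes 26.9% and 28.2%), and 6 higher and 35 lower in HOS (32.1% and 33.8%).

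**Figure D5:**
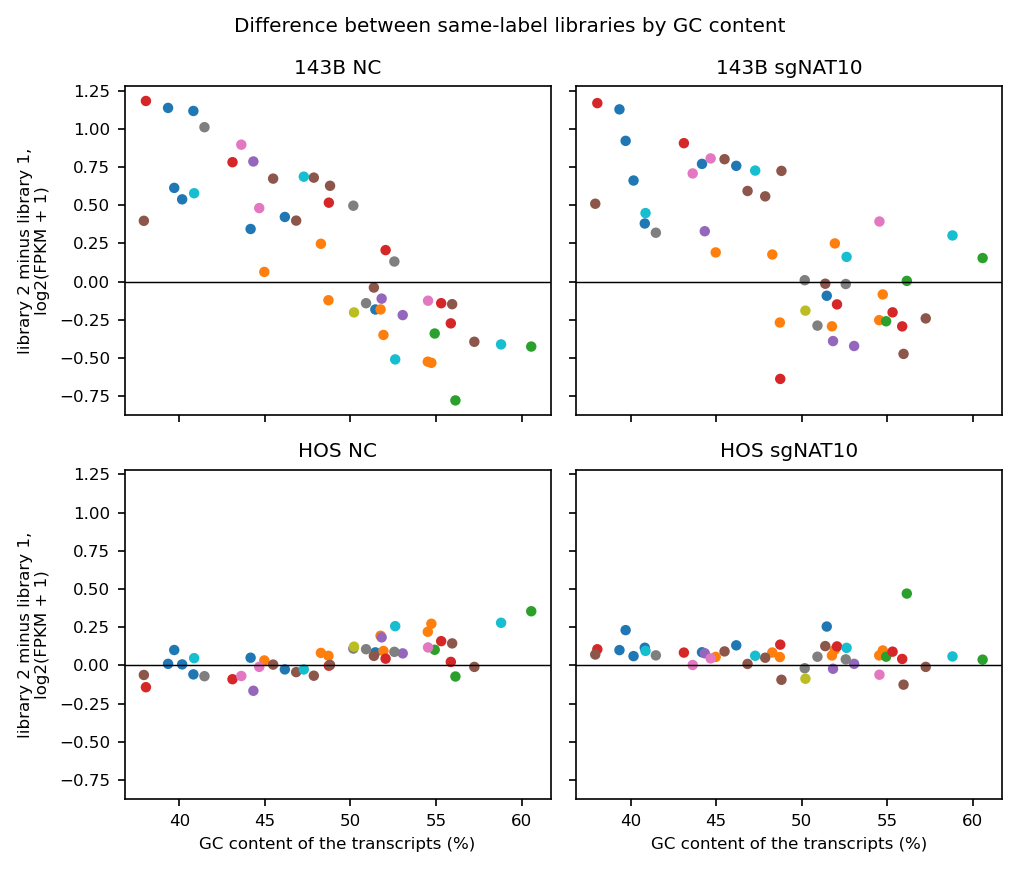
Second minus first library of the same label, in log2(FPKM + 1) (vertical axis), against the GC content of the transcripts in percent (horizontal axis) for the 46 genes, coloured by role, in 143B (top) and HOS (bottom), NC (left) and sgNAT10 (right). In 143B the points fall from left to right in both panels (r = -0.85 and -0.70), and in HOS the spread is narrower.

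PSMC3IP, the symbol set apart, fell in both lines, from 4.65 and 8.49 FPKM to 2.34 and 2.24 in 143B (-1.15, adjusted p = 0.036) and from 16.1 and 12.8 to 8.63 and 8.86 in HOS (-0.66, adjusted p = 8.6e-05). Several proteasome genes have processed pseudogenes, and the sources used here do not say how reads shared with such copies were counted, so those values are uncertain in that respect.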

How the data were processed

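RNA of 143B and HOS cells labelled NC or sgNAT10 was measured in 2 libraries a group, 8 in all, by BGISeq-500 sequencing, per the labels' protocols. The authors deposited FPKM values in 1 table per line. Bowtie2, RSEM, DESeq2 and GRCh38 stand in the submitters' processing notes, without roles or versions. Annotation version and counting by strand are not given in the sources used here. Each listed gene has over 0.5 FPKM in at least 2 libraries. There are no counts, so depth is unknown, no counting interval is given and no count model was used.

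From these values log2(FPKM + 1) was computed. A gene entered the test of a line where 2 or more of its 4 libraries reached 1 FPKM. Each line was fitted separately, as sgNAT10 minus NC, with limma 3.58.1 (R 4.3.3, trend over intensity, two-sided, p adjusted by Benjamini-Hochberg over all genes tested, threshold 0.05). Low genes have understated changes on this scale. The difference between lines came from a joint fit of the 4 groups, with changes taken within a table first, which estimates 1 spread per gene over both lines. Fits were tested on simulated data with independent genes. A log2 change of 1 was called in 29.6% of the altered genes in 143B, 100% in HOS and 10.6% for the difference between lines. For a change of 2 these were 98.8%, 100% and 84.4%. Of the calls, 5.18%, 6.95% and 3.86% were false. A change of that smaller size could thus often be missed in 143B and between the lines. A GENCODE annotation of GRCh38 gave positions, lengths and GC contents (matched by name for 98.8% and 99.0% of genes tested), and promoter windows from RefSeq on GRCh38.p14.

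The proteasome genes, the other gene lists and the tests were chosen with earlier results of these data known. Genes named with values were the 10 largest differences between lines, the 4 largest rises and falls of each line, the catalytic subunits, members called in the same direction in both lines (there were none), and the 3 largest called changes of each other list and line. 1 gene of the pathway list is not reported here. Others were named after their values were seen, mainly PSMB2, PSMC4, PSMC6, PSMD4, PSMD10, PSMD14, PSME1, PSME3, POMP, NFE2L1 in HOS, TAP1, ISG15, MX1, IFIT3 in 143B and the genes given only by log2 change. Alternatives were pseudocounts of 0.1 and 5, filters of 0 and 5 FPKM, median-ratio, common-sum and quantile scaling, length and GC correction, no trend, robust moderation, the spread estimated over all 8 libraries at once, a block for replicate number, and each library left out in turn; a crossed block in HOS was added after the values were seen.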

Additional observations from a re-analysis of the deposited data

Results flagged for a closer look

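The change from NC to sgNAT10 differed between 143B and HOS for 23 of the 46 proteasome genes and for NAT10, by limma's test of the difference itself with Benjamini-Hochberg adjustment over 10655 genes, of which 49.1% differed. Values are the log2 change in 143B minus that in HOS. Among the alpha subunits, it was 2.96 for PSMA4, 2.85 for PSMA6, 1.52 for PSMA7, 1.22 for PSMA2 and 1.02 for PSMA1. Among the beta subunits, the immunoproteasome genes first, it was 1.69 for PSMB9, 1.08 for PSMB10, 0.74 for PSMB8, 1.25 for PSMB7 and 1.06 for PSMB6. Among the ATPases, it was 1.475 for PSMC3, 1.26 for PSMC1 and 0.79 for PSMC5. Among the other subunits of the 19S cap, it was 1.41 for PSMD7, 1.37 for PSMD1, 1.24 for PSMD14, 1.11 for PSMD13, 0.91 for PSMD4 and 0.89 for PSMD8. For an activator subunit and a chaperone of the core, it was 1.41 for PSME2 and 1.38 for PSMG4. The 2 genes with a lower change in 143B were PSMA5 (-1.55) and PSMD3 (-0.91). Adjusted p-values of the 23 genes ran from 0.00031 for PSMA6 to 0.045 for PSMB8, with 2 libraries in each of the 4 groups. With libraries at a common sum, 11 of the 23 were called in the same direction (PSMA4, PSMA5, PSMA6, PSMA7, PSMB7, PSMB9, PSMC3, PSMD3, PSMD13, PSME2 and PSMG4). The others were not called there, with values of 0.48 for PSMA1, 0.68 for PSMA2, 0.51 for PSMB6, 0.21 for PSMB8, 0.56 for PSMB10, 0.72 for PSMC1, 0.25 for PSMC5, 0.83 for PSMD1, 0.36 for PSMD4, 0.87 for PSMD7, 0.34 for PSMD8 and 0.71 for PSMD14. Of 20 alternatives, the difference of PSMA2 was called in 11 and that of PSMA1 in 13. NAT10, the targeted gene, differed by -1.41 (adjusted p = 0.0036), lower in 143B and not lower in HOS with sgNAT10. The tests of the lines alone called 5 of the 23 proteasome genes in opposite directions, and the others passed the test in at most 1 line. Groups of 2 libraries allow no check for a single outlying library.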

How the results depend on the processing

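None of the 8 called changes in 143B, 33 in HOS and 23 between the lines took the opposite sign in any alternative run. Of the 33 in HOS, 27 were called at a common sum and 4 with the shared spread. In 143B the calls of PSMA4, PSMA5, PSMA6 and PSMA7 held in all 17 alternatives. So did the differences of PSMA4, PSMA5, PSMA6, PSMA7, PSMB7, PSMB9, PSMC3, PSMD13, PSME2 and PSMG4 in all 20. The members higher and lower in 143B (7 and 1) are given with the share of all genes in brackets. They were 11 higher after median-ratio scaling (21.2%) and 16 after quantile normalization (24.8%). After length and GC correction they were 22 and 3 (26.9% and 28.2%), and with the shared spread 14 and 2 (16.6% and 35.6%). With a pseudocount of 0.1 (25.2%) or a filter at 5 FPKM (29.8%) 2 were lower, and 4 at a common sum (33.2%). The median change in 143B (0.362) was 0.639 after median-ratio scaling and 0.0313 at a common sum, and that in HOS (-0.349) was -0.576, -0.140 and, after length and GC correction, -0.417. In HOS 11 were higher at a common sum (59.4% of all genes), and 1 was higher and 3 lower with the shared spread (14.7% and 2.83%). Between the lines 9 were higher and 9 lower at a common sum (5.84% and 48.7% of all genes). After median-ratio scaling 1 was lower (25.3%), and after quantile normalization 4 were lower (28.9%). The difference in share without ribosomal protein and MTRNR2L genes was 0.572 in 143B and -0.348 in HOS. Leaving out 1 library at a time gave 4 to 12 higher and 1 to 3 lower in 143B, 6 to 9 higher and 21 to 31 lower in HOS, 11 to 25 and 1 to 4 between the lines, and medians of 0.180 to 0.482 in 143B and -0.401 to -0.297 in HOS. The causes of these shifts were not tested.

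Same-numbered libraries deviated together in 143B (r = 0.61 over all genes, 0.70 over the members) and not in HOS (-0.11 and -0.18), and the labels do not say that a number marks a shared culture. With a replicate block, 21 members were higher and 5 lower in 143B (all genes 24% and 43%), and 28 had a higher and 8 a lower change in 143B than in HOS (21.3% and 47.7%). Among the genes named with values in 143B, the block called PSMB6 (adjusted p = 5.2e-05), PSMB7 (0.00039), PSMB8 (0.0067), PSMB9 (1.7e-05), PSMD1 (0.00043), PSMD7 (4.1e-05), PSMD10 (1.7e-06), PSMA2 (0.0072), PSMC6 (0.049) and PSMD3 (0.044), which the fit without it did not, and in HOS it did not call PSMB8 (0.1). The block with length and GC correction gave 23 higher and 4 lower in 143B (all genes 30.3% and 32.1%) and a median of -0.417 in HOS. The block crossed in HOS gave 6 higher and 27 lower, with 5592 and 2866 of all genes.

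Changes that missed the test took the opposite sign as follows. In 143B, median-ratio scaling gave 0.187 for PSMB5, 0.0911 for PSME1, 0.0708 for PSME4 and 0.234 for PSMF1. Quantile normalization gave 0.0764 for PSME1, 0.112 for PSME4 and 0.181 for PSMF1, and a common sum -0.0427 for PSMD2. Length and GC correction, with or without the block, gave -0.0710 for PSMA3, 0.128 for PSMB5, 0.151 for PSMD3, 0.108 for PSME1 and 0.167 for PSMF1. In HOS it gave -0.189 for PSMC4, -0.0533 for PSME1 and -0.341 for TAP1, and, as called changes that reversed, -0.133 for NAT10 and 0.0753 for POMP. Those of PSMC4 and TAP1 were called there (adjusted p = 0.015 and 0.00079 without the block). In HOS, a common sum gave 0.0218 for PSMA5, 0.140 for PSMA7, 0.188 for PSMB10 and 0.0297 for PSMB5, quantile normalization 0.207 for PSMA7 (adjusted p = 0.031), 0.0407 for PSMB5 and -0.137 for TAP1, and median-ratio scaling -0.141 for PSMC4, -0.0783 for PSME1 and -0.172 for TAP1. Leaving out 1 library at a time, with a sign that depended on the library, gave -0.0103 to 0.748 for PSMA1, -0.213 to 0.924 for PSMA3, -1.02 to 0.166 for PSMC6, -0.269 to 0.0797 for PSMB5, -0.677 to 0.334 for PSME4 and -0.146 to 0.0555 for PSMF1 in 143B, and -0.199 to 0.0548 for PSMA7, -0.185 to 0.169 for PSMB10 and -0.0337 to 0.121 for TAP1 in HOS.

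Depth is unknown, so no limit from counting can be given.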
